A study of Mus musculus with 15 samples.

Results

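The TGF-β, activin and BMP pathway components are 45 genes that were listed by name and role and followed through the conversion of mouse embryonic fibroblasts (MEFs) into induced myogenic progenitor cells (iMPCs). They comprised 18 genes grouped here as ligands (among them Bmp1, which encodes a protease and not a ligand), 12 receptors, 8 Smads and 7 antagonists, out of 35675 genes with a matched transcript. All 45 were among the 19331 genes that passed the filter on low counts. RNA-seq was performed on 15 libraries, from 3 MEF lines that each went through 5 conditions, all labelled day 10, although the deposited MEF tables are named for day 0. Every line carried the Pax7-nGFP transgene, a nuclear GFP reporter of the muscle stem cell factor Pax7, on a C57BL6 and DBA2 background, and was derived from a single embryo. The MEFs were untreated and kept in iMPC medium. The +MyoD group was transfected 4 times with synthetic mRNA for the myogenic factor MyoD in iMPC medium with B18R, a decoy receptor for type I interferon. The +MyoD+F/R/C group received the same mRNA and B18R together with forskolin (F, which raises cAMP), RepSox (R, an inhibitor of the TGF-β type I receptor kinase) and CHIR99210 (C, as the study spells its GSK3 inhibitor). The other 2 groups had in addition SP600125 (SP, a JNK inhibitor) or CP690550 (CP, a JAK inhibitor). The mRNA, its transfection and B18R were always given together, and so were F, R and C, so that their effects cannot be told apart. Should the MEF cultures be of day 0, time in culture also differed between them and all other groups. It could then not be told apart from the mRNA, and "with MyoD mRNA" below stands for +MyoD against MEFs only. Single libraries are named here by the last component of their group and the MEF line, as in MEFs 1, +MyoD 1, F/R/C 1, SP 1 and CP 1.

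Ligands of the TGF-β superfamily are secreted as dimers and bring together type I and type II receptor kinases on the cell surface. TGF-βs, activins and myostatin act mainly through Smad2 and Smad3, and most BMPs and some GDFs through Smad1, Smad5 and Smad9, with Smad4 as the shared partner. Smad6 and Smad7 inhibit the pathway, and follistatin, noggin, gremlin and chordin bind ligands outside the cell. In muscle, TGF-β and myostatin are known to restrain myogenic differentiation and growth, whereas follistatin promotes growth. RepSox blocks the kinase encoded by Tgfbr1, and inhibitors of its class also act on the related activin receptor encoded by Acvr1b.

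The libraries held 29393872 to 41885769 estimated counts. Myod1 was at 0.113 to 0.556 CPM (counts scaled to the TMM-adjusted library total) in the MEFs and 787 to 3845 CPM in the 12 transfected libraries, where delivered mRNA and the transcript of the gene itself cannot be told apart. The summed level of 8 skeletal muscle markers was 3.20 to 5.81 CPM in the MEFs, 635 to 1314 in +MyoD and 4194 to 6514 in the 9 F/R/C libraries. That of 8 fibroblast markers was 4492 to 5234, 12186 to 27459.6 and 8979 to 15053 CPM, with none of the 8 at 0 in any group. These markers did not move together, and with F/R/C most of the sum was Col1a2 and Col3a1. Fbln2 was at 2296 to 3144 CPM in the MEFs, 2674 to 6102 in +MyoD and 123 to 392 with F/R/C. Lum was at 1.56 to 2.46, 8.40 to 57.5 and 203 to 638 CPM. Summed over 8 muscle stem cell markers, the level was 109 to 127 CPM in the MEFs, 257 to 523 in +MyoD and 292 to 455 in the F/R/C libraries. Of these 8, Pax7 and Myf5 were at 0 in the 3 +MyoD libraries and at 0 to 0.142 CPM in the MEFs. With F/R/C they were at 0.284 to 20.4 and 0.760 to 5.61 CPM. Fgfr4 also rose, from 0.623 to 1.86 CPM in +MyoD to 7.47 to 44.6 with F/R/C. Most of the sum was Itga7 (157 to 282 CPM in +MyoD, 164 to 265 with F/R/C) and Sdc4 (89.7 to 235 and 81.7 to 124). The sum therefore does not show the course of the less abundant markers. The 6 cell cycle genes summed to 1169 to 1302 CPM in the MEFs, 99.5 to 126 in +MyoD and 170.0 to 409.7 in the F/R/C libraries. Other lists also moved with the groups: 5 smooth muscle genes summed to 4966 to 6369, 3158 to 7519 and 1059 to 3293 CPM, and 5 adipocyte genes to 41.0 to 53.2, 22.9 to 112 and 296 to 493 CPM. All cells of a dish were sequenced together, so that a change in the cells making a transcript and a change in RNA per cell cannot be told apart, and the part of these shifts in the values below was not tested.

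A difference was called where edgeR's quasi-likelihood test, fitted over all 15 libraries, gave a Benjamini-Hochberg adjusted p of at most 0.05 and a log2 fold change over 0.5 in size. In +MyoD against MEFs, 20 of the 45 genes rose and 6 fell (26 called), where 22.8% and 18% of all genes tested were called higher and lower. In the 3 F/R/C groups against +MyoD, 13 rose and 13 fell (background 13.5% and 10.8%), and in +MyoD+F/R/C alone against +MyoD 13 rose and 12 fell (background 10.9% and 8.39%). Set directly against MEFs, +MyoD+F/R/C held 22 genes that rose and 10 that fell (background 26.6% and 21.6%). These comparisons share groups and are therefore not independent. The median log2 fold change of the 45 genes was 0.60 with MyoD mRNA (all genes 0.12) and -0.03 with F/R/C (all genes 0.01). Ligand genes accounted for 12 of the 20 genes that rose with MyoD mRNA and 9 of the 13 that rose with F/R/C.

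**Figure D1:**
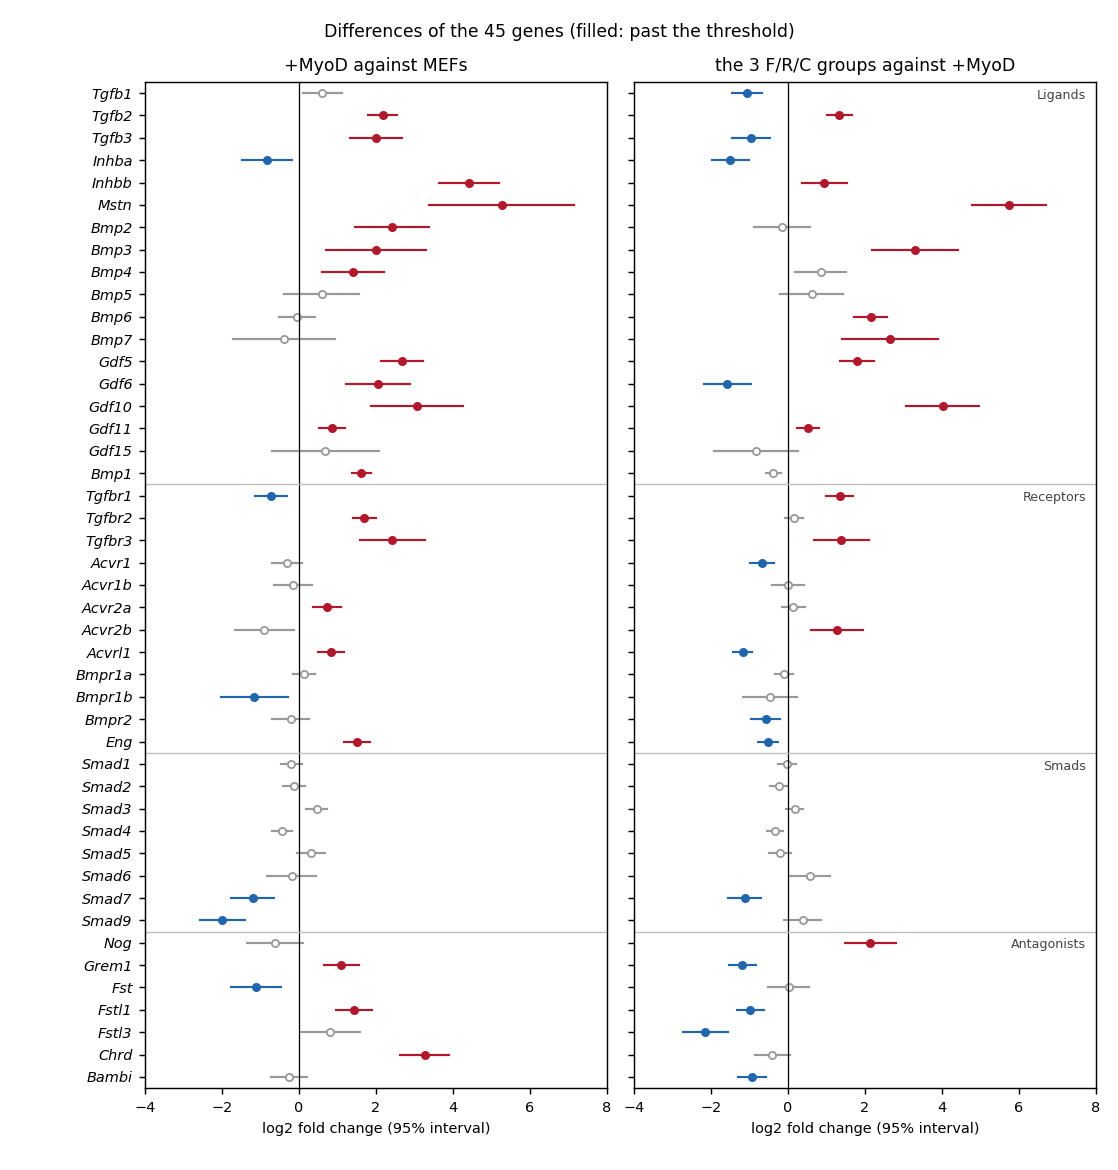
Difference of each of the 45 genes (x axis, log2 fold change) in +MyoD against MEFs (left) and in the 3 F/R/C groups against +MyoD (right), ordered by role; points are edgeR estimates, lines 95% intervals, filled red and blue points rose and fell past the threshold, open grey points did not pass it. With MyoD mRNA 12 of 18 ligand genes rose and 1 fell, while 3 F/R/C groups against +MyoD had 9 that rose and 4 that fell, and 1 of 8 Smads passed. Of all genes tested, 22.8% rose and 18% fell with MyoD mRNA, and 13.5% rose and 10.8% fell with F/R/C.

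The set of RefSeq promoter sequences used here (GRCm38.p6) covered 30 of the 45 genes, as 36 promoters. Members outside it, among them Tgfb3, Acvrl1, Smad7 and Nog, do not enter the motif counts below. The 250 bases before the start are shown for Mstn, the member with the largest rise, and for Tgfb2 and Tgfb1, which moved in opposite directions when F/R/C was added. Capitals mark matches on either strand to the E-box CANNTG (bound by MyoD and other basic helix-loop-helix factors), the CAGA box CAGACA (bound by Smad3 and Smad4) and the cAMP half-site TGACG. One form of the E-box, CAGCTG, was also counted separately.
Mstn (chr1:53061390-53061639, + strand): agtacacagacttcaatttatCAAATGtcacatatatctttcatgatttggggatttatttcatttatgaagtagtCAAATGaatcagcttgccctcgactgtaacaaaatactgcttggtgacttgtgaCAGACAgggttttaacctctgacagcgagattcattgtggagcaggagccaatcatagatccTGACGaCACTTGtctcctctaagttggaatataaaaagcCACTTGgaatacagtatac
Tgfb2 (chr1:186705990-186706239, - strand): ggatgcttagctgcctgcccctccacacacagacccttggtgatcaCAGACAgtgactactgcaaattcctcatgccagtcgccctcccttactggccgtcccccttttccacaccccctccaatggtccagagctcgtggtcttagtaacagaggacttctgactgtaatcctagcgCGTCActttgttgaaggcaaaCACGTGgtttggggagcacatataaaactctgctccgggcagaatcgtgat
Tgfb1 (chr7:25686752-25687001, + strand): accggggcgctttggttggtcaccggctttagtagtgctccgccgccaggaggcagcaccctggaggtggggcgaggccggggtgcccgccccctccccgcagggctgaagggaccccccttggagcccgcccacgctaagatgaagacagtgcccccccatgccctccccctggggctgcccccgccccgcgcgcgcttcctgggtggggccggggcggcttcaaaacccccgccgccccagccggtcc
The Mstn sequence held 4 matches to CANNTG, 1 to CAGACA and 1 to TGACG, the Tgfb2 sequence 1 of each, and the Tgfb1 sequence none. Over the 36 promoters, CANNTG was present in 15 (41.7%; 66.2% of all 32851 promoters), CAGCTG in 2 (13% of all), CAGACA in 6 (17.1% of all) and TGACG in 5 (17.8% of all). The GC-rich Smad motif GGCGCC, not marked above, was present in 7 (19.4%; 9.59% of all). The 6 genes with CAGACA were Bmp5, Bmpr1b, Fstl3, Mstn, Tgfb2 and Tgfbr1. Of these, Mstn, Tgfb2 and Tgfbr1 rose and Fstl3 fell in the 3 F/R/C groups against +MyoD. In that comparison 13 of the 45 members rose and 13 fell (13.5% and 10.8% of all genes tested). CAGACA was no more frequent in the member promoters (16.7%) than in all, and a link between motif and direction was not tested. For Tgfbr1 the match lay in the promoter at chr4:47385966-47386215 and not in that at chr4:47352972-47353221. For Bmpr1b it lay only in that at chr3:141982265-141982514. A match describes the letters only, and occupancy of these windows was not measured.

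Mstn encodes myostatin, the secreted inhibitor of muscle growth, and lies at chr1:53061640-53068079 (GRCm38, + strand). It received 0, 0 and 3 counts in the MEFs, 35, 13 and 74 in +MyoD, and 1403 to 3365 in the 9 F/R/C libraries. This was 1.10, 0.378 and 2.20 CPM in +MyoD and 34.7 to 87.8 (median 63.3) CPM with F/R/C, and no library of one group overlapped the other. Against the 3 counts of the MEFs, the ratio of summed counts per library size was 44.5 in +MyoD (exact 95% interval 14.9 to 219, counting error only). The fitted log2 fold change of this step, 5.27, was 8.51, adjusted p = 0.00051 without MEFs 3, which held all MEF counts, and 4.52, adjusted p = 0.00073 without +MyoD 3. The MEF counts were assigned to the transcript Mstn-202, whereas in +MyoD and +MyoD+F/R/C all were assigned to Mstn-201. From +MyoD to the 3 F/R/C groups, Mstn rose 53.7-fold (log2 fold change 5.75, SE 0.45, adjusted p = 4.5e-07). Without +MyoD 3, which held the most Mstn of its group, the log2 fold change was 6.49, adjusted p = 3.8e-07. Gdf11, its closest relative, was already present in MEFs at 26.0, 17.7 and 17.7 CPM. It stood at 36.8, 33.6 and 40.6 CPM in +MyoD (log2 fold change 0.85, SE 0.16, adjusted p = 0.00046) and at 46.9 to 60.8 (median 51.6) CPM in the F/R/C libraries. The latter step was 0.51 (SE 0.13, adjusted p = 0.0095), just over the 0.5 limit. It was not called without any one of +MyoD 2, F/R/C 2 or SP 1 (log2 fold change 0.44 to 0.49, adjusted p = 0.013 to 0.056).

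The 3 TGF-β genes took separate courses. Tgfb1 was at 45.2, 59.5 and 60.7 CPM in the MEFs, 96.1, 104 and 51.1 in +MyoD and 28.5 to 50.3 (median 39.7) in the F/R/C libraries, all of which lay below every +MyoD library. The rise with MyoD mRNA did not pass (log2 fold change 0.60, SE 0.24, adjusted p = 0.054). +MyoD 3 lay within the MEF range, and the rise passed without it (0.85, adjusted p = 0.0034), in DESeq2 (0.60, adjusted p = 0.042) and in the fit blocked by MEF line (0.60, adjusted p = 0.031). With F/R/C Tgfb1 fell 2.10-fold (log2 fold change -1.07, SE 0.19, adjusted p = 0.00042). Tgfb2 was at 13.2, 19.3 and 16.7 CPM in the MEFs, 80.1, 84.9 and 57.5 in +MyoD and 128 to 249.7 (median 192) with F/R/C. It thus rose at each step with no overlap, 4.53-fold with MyoD mRNA (log2 fold change 2.18, SE 0.18, adjusted p = 2e-07) and a further 2.52-fold with F/R/C (log2 fold change 1.33, SE 0.15, adjusted p = 1e-05). Tgfb3 rose from 118, 119.9 and 75.5 CPM to 308, 680.0 and 266 CPM with MyoD mRNA (log2 fold change 2.0, SE 0.31, adjusted p = 8.7e-05), with +MyoD 2 far above its group. In +MyoD+F/R/C it was at 136, 123 and 191 CPM (log2 fold change -1.48, SE 0.31, adjusted p = 0.0028), whereas the libraries with SP held 245, 261 and 363 and those with CP 200.3, 213 and 254 CPM. Over all 3 F/R/C groups the fall of Tgfb3 was -0.97 (SE 0.23, adjusted p = 0.0051) and was not called without +MyoD 2 (log2 fold change -0.43, adjusted p = 0.13). In TPM, transcript abundance scaled by length and library total, which allows genes to be compared, Tgfb2 made up 5.76, 8.84 and 10.6% of the summed Tgfb1, Tgfb2 and Tgfb3 in the MEFs, 15.6, 10.1 and 16.3% in +MyoD and 31.4 to 49.7% in the F/R/C libraries. The share of Tgfb1 was 42.7% ± 7.08 (SD, n = 3), 21.4% ± 5.56 and, in +MyoD+F/R/C, 17.4% ± 3.68.

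**Figure D2:**
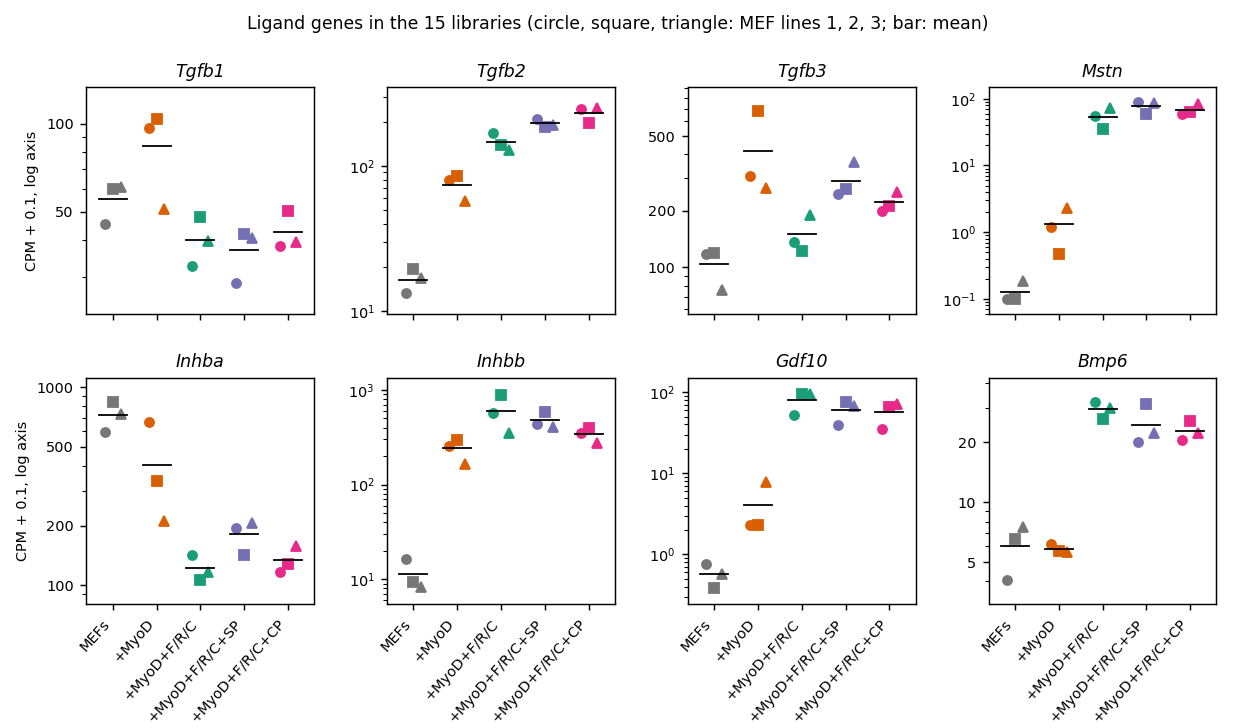
CPM plus 0.1 on a log axis for 8 ligand genes in each of the 15 libraries; symbols mark the 3 MEF lines and bars the group means (n = 3). By group means, Tgfb2 and Inhbb stepped up from MEFs to +MyoD to F/R/C and Inhba stepped down. Tgfb1 and Tgfb3 were highest in +MyoD, and Mstn, Gdf10 and Bmp6 in the F/R/C libraries. Single libraries of Inhba, Inhbb, Tgfb1 and Tgfb3 overlapped between groups.

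Inhba and Inhbb encode the subunits whose dimers form activin A and activin B. Inhba was at 595, 841 and 731 CPM in the MEFs, 669, 337 and 211 in +MyoD and 106 to 207 (median 141) with F/R/C. It fell 2.83-fold from +MyoD to the F/R/C groups (log2 fold change -1.5, SE 0.23, adjusted p = 0.00015). Its fall with MyoD mRNA was smaller (log2 fold change -0.83, SE 0.30, adjusted p = 0.036), and +MyoD 1 lay within the MEF range. This fall was not called without any one of +MyoD 2, +MyoD 3, MEFs 2 or MEFs 3 (log2 fold change -0.82 to -0.52, adjusted p = 0.075 to 0.13). Inhbb was at 16.2, 9.29 and 8.17 CPM in the MEFs, 258, 299 and 165 in +MyoD and 273 to 889.6 (median 409) with F/R/C. It rose 21.5-fold with MyoD mRNA (log2 fold change 4.42, SE 0.37, adjusted p = 2.3e-07) and 1.91-fold further with F/R/C (log2 fold change 0.94, SE 0.27, adjusted p = 0.017). In the latter step the groups overlapped, and the call was lost without +MyoD 3 (log2 fold change 0.73, adjusted p = 0.092). By TPM, Inhbb was 2.97, 1.17 and 1.2% of the 2 subunits in the MEFs, 26.7, 40.5 and 40.2% in +MyoD and 65.3 to 87.5% in the F/R/C libraries. The 3 sets of shares did not overlap, so that the more abundant activin subunit transcript was Inhba in all MEF and +MyoD libraries and Inhbb in all F/R/C libraries.

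**Figure D3:**
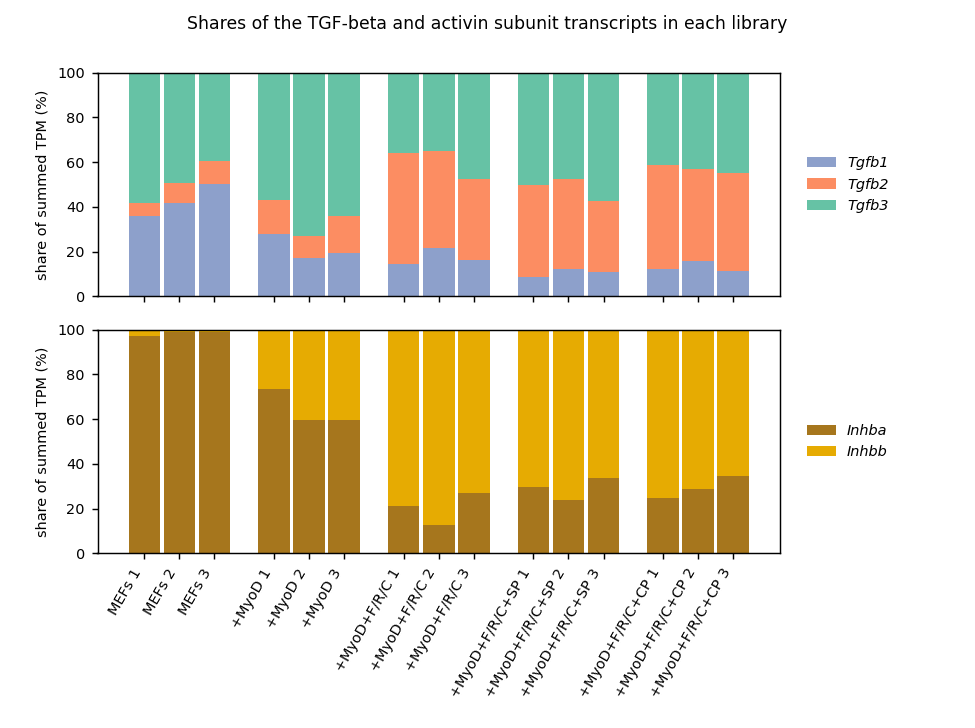
Share of the summed TPM (y axis, %) of Tgfb1, Tgfb2 and Tgfb3 (top) and of Inhba and Inhbb (bottom) in each of the 15 libraries. Inhbb took 1.78% on average in the MEFs, 35.8% in +MyoD and 73.8% over the 9 F/R/C libraries, and Tgfb2 8.39, 14 and 41.6%.

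Among the BMP and GDF ligands, those that rose with F/R/C were Gdf10, Bmp3, Bmp7, Bmp6 and Gdf5, besides Gdf11. Gdf10 and Bmp3 are closely related, and Bmp3 is known to counteract other BMPs in bone. Gdf10 was at 0.667, 0.283 and 0.468 CPM in the MEFs, 2.22, 2.18 and 7.62 in +MyoD and 35.4 to 95.8 (median 67.1) with F/R/C. It rose 16.3-fold in the latter step (log2 fold change 4.03, SE 0.45, adjusted p = 8.8e-06), and without +MyoD 3, its highest +MyoD library, the log2 fold change was 4.89, adjusted p = 1.3e-06. Bmp3 followed the same order, at 0.834, 0.425 and 0.702, then 0.783, 2.68 and 4.42, then 10.2 to 42.6 (median 30.2) CPM (log2 fold change 3.30, SE 0.53, adjusted p = 0.00022). Its earlier rise with MyoD mRNA (log2 fold change 2.0, SE 0.61, adjusted p = 0.015) was not called without +MyoD 3 or MEFs 2 (log2 fold change 1.40 to 1.76, adjusted p = 0.063 to 0.096). Without +MyoD 3 the step to F/R/C was 3.90, adjusted p = 0.00027. Bmp6 did not pass with MyoD mRNA, at 3.98, 6.43 and 7.40 CPM in MEFs and 6.05, 5.59 and 5.55 in +MyoD (log2 fold change -0.05, SE 0.22, adjusted p = 0.89). With F/R/C it reached 20.1 to 31.8 (median 25.7) CPM, a 4.43-fold rise (log2 fold change 2.15, SE 0.20, adjusted p = 2.1e-06). Bmp7 was at 5.34, 1.76 and 3.86 CPM in the MEFs, 6.01, 1.25 and 1.13 in +MyoD and 7.35 to 33.0 (median 16.1) with F/R/C (log2 fold change 2.65, SE 0.59, adjusted p = 0.0028). The step was 3.88, adjusted p = 0.00018 without +MyoD 1, which was the highest of its group, and for +MyoD+F/R/C alone it was lost without F/R/C 1 (1.84, adjusted p = 0.056). Gdf5, a ligand of joint and cartilage development, was at 0.723, 0.793 and 0.615, then 4.13, 4.10 and 5.46, then 9.09 to 20.8 (median 15) CPM. It rose at both steps, 6.40-fold and 3.44-fold (adjusted p = 9.2e-07 and 1.4e-05). The 6 chondrocyte markers summed to 120.2 to 236 CPM in the MEFs, 45.7 to 82.9 in +MyoD and 13.7 to 24.6 with F/R/C, Matn1 being at 0 except with SP.

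Gdf6, related to Gdf5, went the other way with F/R/C. It was at 4.70, 4.42 and 1.99 CPM in the MEFs, 10.7, 14.4 and 21.4 in +MyoD and 3.67 to 7.15 (median 4.53) with F/R/C. It rose with MyoD mRNA (log2 fold change 2.06, SE 0.39, adjusted p = 0.00047) and fell with F/R/C (log2 fold change -1.58, SE 0.29, adjusted p = 0.0006). Bmp2, an osteogenic ligand, rose from 6.65, 4.22 and 5.94 CPM in the MEFs to 23, 9.66 and 56.8 in +MyoD (log2 fold change 2.41, SE 0.45, adjusted p = 0.0004; 1.54, adjusted p = 0.0013 without +MyoD 3). In the F/R/C libraries it was at 18.5 to 36.6 (median 26.7) CPM, inside the range of +MyoD (adjusted p = 0.79). Bmp4 rose from 8.48, 9.49 and 5.77 CPM to 13.7, 27.6 and 21.1 CPM with MyoD mRNA (log2 fold change 1.39, SE 0.38, adjusted p = 0.0069), a call lost with counts rescaled by transcript length (0.82, adjusted p = 0.079). It was at 47.8, 66.5 and 17.7 CPM in +MyoD+F/R/C (log2 fold change 1.08, SE 0.37, adjusted p = 0.049). This call was lost in the fit blocked by MEF line (0.98, adjusted p = 0.052) and without any one of +MyoD 1, +MyoD 3, F/R/C 1 or F/R/C 2 (log2 fold change 0.65 to 1.09, adjusted p = 0.094 to 0.26). The 3 F/R/C groups together did not pass (adjusted p = 0.054), but did in the blocked fit (0.82, adjusted p = 0.044), in DESeq2 (0.86, adjusted p = 0.015), with its size factors (0.86, adjusted p = 0.049) and with no filter (0.87, adjusted p = 0.023). Bmp1, the procollagen C-proteinase that also cleaves chordin, had the highest mean TPM of the 18 in the 4 transfected groups, but not in every library: in +MyoD 2 it was below Tgfb3 and in F/R/C 2 below Inhbb. In +MyoD+F/R/C, Bmp1 (277 ± 7.51 TPM, SD, n = 3) and Inhbb (239 ± 100.1 TPM) do not differ beyond their spread. It rose from 215, 229 and 248 CPM to 794, 666 and 668 CPM (log2 fold change 1.62, SE 0.12, adjusted p = 5.6e-08). Its difference with F/R/C, -0.38 on the log2 scale (adjusted p = 0.0044), was under the 0.5 limit. Bmp5 (1.22 to 6.08 CPM over the 15 libraries) passed in +MyoD+F/R/C against MEFs (log2 fold change 1.38, SE 0.46, adjusted p = 0.02). It was not called there without any one of F/R/C 1, MEFs 1 or MEFs 2 (log2 fold change 1.15 to 1.25, adjusted p = 0.075 to 0.086). Gdf15, a stress-induced member, ranged from 1.17 to 15.3 CPM and passed in none of the comparisons in the fit of all libraries (adjusted p = 0.43 with MyoD mRNA and 0.26 with F/R/C). In +MyoD+F/R/C against +MyoD it passed in DESeq2 (-1.57, adjusted p = 0.049) and without +MyoD 3 (-2.02, adjusted p = 0.037).

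Receptor genes split in the same comparison. With F/R/C, 3 of 12 rose (Tgfbr1, Tgfbr3 and Acvr2b) and 4 fell (Acvr1, Acvrl1, Bmpr2 and Eng), and with MyoD mRNA 5 rose and 2 fell. Of all genes tested, 13.5% rose and 10.8% fell with F/R/C, and 22.8% rose and 18% fell with MyoD mRNA. Tgfbr1, which encodes the kinase that RepSox blocks, was at 69.5, 79.3 and 76.7 CPM in the MEFs and 44.8, 33.2 and 57.5 in +MyoD. In the F/R/C libraries it was at 95.1 to 149 (median 106) CPM, so that every +MyoD library was below all MEF libraries and every F/R/C library above them. It fell 1.66-fold with MyoD mRNA (log2 fold change -0.73, SE 0.19, adjusted p = 0.0051), a call lost when counts were rescaled by transcript length (-0.54, adjusted p = 0.077). With F/R/C it rose 2.53-fold (log2 fold change 1.34, SE 0.17, adjusted p = 2.6e-05). Acvr1b, the activin type I receptor, was at 51.1, 35.5 and 42.1 CPM in the MEFs, 24.3, 42.3 and 48.8 in +MyoD and 26.5 to 59.8 (median 36.6) with F/R/C. Its groups overlapped, and the difference with F/R/C had an interval of -0.41 to 0.41 on the log2 scale (adjusted p = 1).

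Tgfbr2, the type II receptor that binds TGF-β, rose with MyoD mRNA from 92.8, 83.3 and 85.4 to 239.8, 263 and 346 CPM (log2 fold change 1.70, SE 0.14, adjusted p = 1.7e-07). With F/R/C it stood at 245 to 369 (median 319.9) CPM, overlapping +MyoD (interval of the log2 difference -0.09 to 0.38). Its transcript Tgfbr2-201 made up 65.2% ± 1.22 of the gene's TPM in the MEFs, 68.1% ± 0.497 in +MyoD and 66.9% ± 3.75 in +MyoD+F/R/C (SD, n = 3). Tgfbr3 encodes betaglycan, the co-receptor that presents TGF-β2 and also binds inhibin. It was at 45.8, 16.7 and 26.9 CPM in the MEFs, 65.3, 157 and 257 in +MyoD and 308 to 658 (median 426) with F/R/C, with no overlap between the 3 sets. It rose 5.37-fold (log2 fold change 2.42, SE 0.40, adjusted p = 0.00013) and then 2.61-fold (log2 fold change 1.39, SE 0.33, adjusted p = 0.0052). By TPM it was 7.79 ± 3.98 TPM (SD, n = 3) in the MEFs and 164 ± 26.9 TPM in +MyoD+F/R/C, where it and Tgfbr2 (116 ± 9.55 TPM) were the highest of the 12 receptors by TPM. In the MEFs the highest were Acvr1 (49.3 ± 9.97 TPM) and Bmpr1a (39.7 ± 2.84 TPM), which do not differ beyond their spread.

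Acvrl1 (ALK1) and Eng (endoglin) form a TGF-β and BMP9 receptor best known from endothelium, and rose with MyoD mRNA and fell with F/R/C. Acvrl1 was at 25.6, 31.5 and 31.2 CPM in the MEFs, 54.9, 54.6 and 47.6 in +MyoD and 16.7 to 34.9 (median 22.1) with F/R/C. The rise had a log2 fold change 0.83, SE 0.16, adjusted p = 0.00042, and the fall a log2 fold change -1.18, SE 0.12, adjusted p = 3.8e-06. Eng was at 17.3, 17.1 and 19.1 CPM in the MEFs, 61.7, 50.0 and 39.8 in +MyoD and 28.9 to 41.5 (median 33.9) with F/R/C. Its rise showed no overlap (log2 fold change 1.5, SE 0.16, adjusted p = 2e-06). Its fall, -0.51 on the log2 scale, lay at the 0.5 limit and came under it with the DESeq2 size factors (-0.49, adjusted p = 0.0053), in DESeq2 (-0.49, adjusted p = 0.0019) and with no filter (-0.49, adjusted p = 0.0086). It was also lost without any one of +MyoD 1, CP 1, CP 3, F/R/C 2, SP 2 or SP 3 (log2 fold change -0.50 to -0.34, adjusted p = 0.0098 to 0.06). Summed over 6 endothelial markers, the level was 12.8 to 14.4 CPM in the MEFs, 16.8 to 26.3 in +MyoD and 6.05 to 20.4 with F/R/C. None was at 0 in all libraries of a group. Most of the +MyoD sum was Esam (22.9, 13.8 and 20.3 CPM, against 4.56 to 6.59 in the MEFs). Kdr (3.61 to 7.56 CPM in the MEFs, 1.47 to 1.92 in +MyoD) and Pecam1 were lower in every +MyoD library than in any MEF library. The markers thus did not rise as a list with Acvrl1 and Eng.

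**Figure D4:**
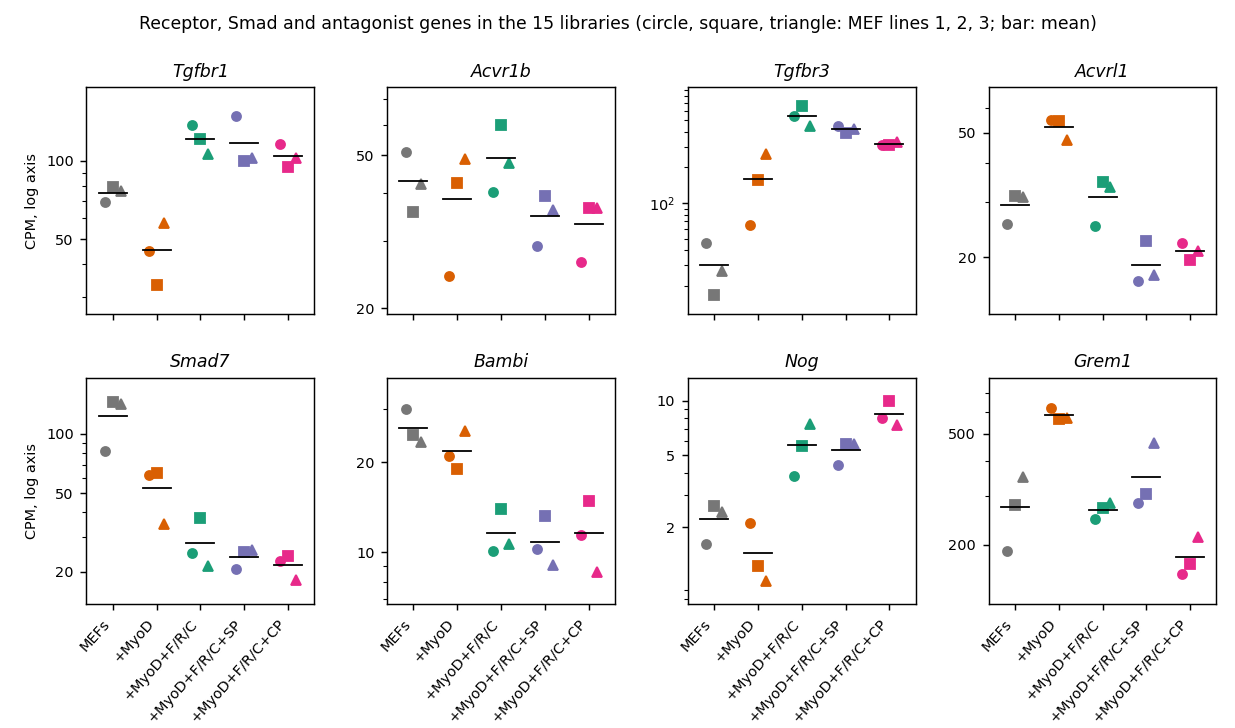
CPM on a log axis for 8 receptor, Smad and antagonist genes in each of the 15 libraries; symbols mark the 3 MEF lines and bars the group means (n = 3). By group means, Tgfbr1 was lowest in +MyoD, Tgfbr3 and Nog were highest with F/R/C, Smad7 and Bambi were lowest there, and Acvrl1 and Grem1 were highest in +MyoD. For Smad7, +MyoD 3 lay within the F/R/C range.

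The BMP type I receptor genes differed from each other. Bmpr1a had the smallest differences of the 45, at 94.5 to 141 CPM over all 15 libraries with log2 fold changes of -0.13 to 0.13 in the 6 comparisons, none called. Bmpr1b was at 8.12, 15.6 and 10.0 CPM in the MEFs, 8.02, 4.57 and 2.49 in +MyoD and 2.15 to 5.03 (median 3.61) with F/R/C. It fell in +MyoD+F/R/C against MEFs (log2 fold change -1.82, SE 0.42, adjusted p = 0.0018). Its fall in +MyoD (log2 fold change -1.16, SE 0.41, adjusted p = 0.031) was not called without any one of +MyoD 2, +MyoD 3 or MEFs 2 (log2 fold change -1.10 to -0.84, adjusted p = 0.083 to 0.16). Acvr1 (ALK2), another BMP type I receptor, was at 61.0, 101 and 94.2 CPM in the MEFs, 83.1, 69.7 and 53.2 in +MyoD and 36.5 to 50.5 (median 42.6) with F/R/C. Every F/R/C library lay below all of +MyoD (log2 fold change -0.67, SE 0.14, adjusted p = 0.0023). The type II receptor Bmpr2 fell with F/R/C as well (log2 fold change -0.58, SE 0.18, adjusted p = 0.022). This call was lost without +MyoD 1 (log2 fold change -0.34, adjusted p = 0.2) and with counts rescaled by transcript length (-0.56, adjusted p = 0.073). Of the activin type II receptors, Acvr2a rose with MyoD mRNA (log2 fold change 0.72, SE 0.17, adjusted p = 0.0026). Acvr2b rose with F/R/C, from 1.63, 1.37 and 2.23 CPM to 1.82 to 7.16 (median 4.38) CPM (log2 fold change 1.28, SE 0.31, adjusted p = 0.0058), but did not pass with counts rescaled by transcript length (0.89, adjusted p = 0.12).

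Of the 8 Smad genes, 2 fell with MyoD mRNA (Smad7 and Smad9), 1 fell with F/R/C (Smad7), and none rose in these steps. These falls were 25% and 12.5% of the Smads, where 18% and 10.8% of all genes tested fell and 22.8% and 13.5% rose. Smad7, the inhibitory Smad that is itself induced by TGF-β, was at 81.6, 145 and 142 CPM in the MEFs, 61.8, 63.1 and 34.8 in +MyoD and 18.2 to 37.3 (median 24.1) with F/R/C. It fell 2.31-fold with MyoD mRNA (log2 fold change -1.21, SE 0.26, adjusted p = 0.0015) and 2.19-fold further with F/R/C (log2 fold change -1.13, SE 0.20, adjusted p = 0.00057), although +MyoD 3 lay within the F/R/C range. For +MyoD+F/R/C alone against +MyoD (log2 fold change -0.93, SE 0.26, adjusted p = 0.019) the call was lost without any one of +MyoD 1, +MyoD 2, F/R/C 1 or F/R/C 3 (log2 fold change -0.84 to -0.76, adjusted p = 0.059 to 0.084). Smad9, one of the 3 BMP Smads the least abundant of them by TPM in all 5 groups, was at 14.4, 14.3 and 14 CPM in the MEFs and 4.10, 4.25 and 2.34 in +MyoD, a 3.98-fold fall (log2 fold change -1.99, SE 0.28, adjusted p = 2.8e-05). It was at 3.0 to 5.72 (median 4.59) CPM with F/R/C (adjusted p = 0.23 against +MyoD). Smad4 (-0.89, adjusted p = 2.3e-05) fell and Smad3 (0.64, adjusted p = 0.00046) rose in +MyoD+F/R/C against MEFs, the latter not called without F/R/C 3 (log2 fold change 0.47, adjusted p = 0.0059). Smad6 did not pass in +MyoD+F/R/C against +MyoD (adjusted p = 0.064), but did in the fit blocked by MEF line (0.79, adjusted p = 0.033), in DESeq2 (0.83, adjusted p = 0.027) and with no filter (0.84, adjusted p = 0.042). Smad1, Smad2 and Smad5 passed in no comparison in the fit of all libraries, although Smad2 was called lower in +MyoD+F/R/C against MEFs with counts rescaled by transcript length (-0.79, adjusted p = 0.00074, against -0.35). For Smad2 the interval with F/R/C was -0.46 to 0.00 and for Smad1 -0.26 to 0.20 on the log2 scale.

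Antagonists also moved in both directions, 1 of 7 up and 4 down with F/R/C (of all genes tested 13.5% and 10.8%). Nog, which encodes the BMP antagonist noggin, was at 1.61, 2.63 and 2.43 CPM in the MEFs, 2.10, 1.22 and 1.01 in +MyoD and 3.86 to 10.0 (median 5.80) with F/R/C. This was a 4.40-fold rise over +MyoD without overlap (log2 fold change 2.14, SE 0.31, adjusted p = 9.3e-05). Grem1 (gremlin, another BMP antagonist) was at 190.1, 278 and 350.3 CPM, 619, 565 and 571 in +MyoD and 157 to 462 (median 271) with F/R/C. It rose with MyoD mRNA (log2 fold change 1.10, SE 0.21, adjusted p = 0.00053) and fell with F/R/C (log2 fold change -1.19, SE 0.16, adjusted p = 5.2e-05). The latter range lay around that of the MEFs (interval of the log2 difference between +MyoD+F/R/C and MEFs -0.48 to 0.42). Fstl3, a follistatin-like binder of activin and myostatin, was at 27.6, 38.9 and 35.6 CPM in the MEFs, 51.0, 99.8 and 28.9 in +MyoD and 7.48 to 22.9 (median 13.5) with F/R/C (log2 fold change -2.15, SE 0.27, adjusted p = 2.6e-05). With MyoD mRNA it passed in the fit blocked by MEF line (0.75, adjusted p = 0.036) and without +MyoD 3 (1.14, adjusted p = 0.0095), but not in the fit of all libraries without the block (adjusted p = 0.08). Bambi, a decoy receptor without a kinase, was at 30.0, 24.6 and 23.3 CPM, 20.9, 18.9 and 25.5 in +MyoD and 8.59 to 14.9 (median 10.7) with F/R/C, where it fell (log2 fold change -0.94, SE 0.17, adjusted p = 0.00066). Fstl1 had the highest mean TPM of the antagonists in all 5 groups, although in the MEFs it (347 ± 6.20 TPM, SD, n = 3) and Fst (303 ± 101 TPM) do not differ beyond their spread and Fst was higher in MEFs 1. It rose from 778, 853 and 832 to 1310.3, 2974 and 2332 CPM with MyoD mRNA (log2 fold change 1.43, SE 0.22, adjusted p = 6.3e-05). It fell to 978 to 1384 (median 1065) CPM with F/R/C (log2 fold change -0.98, SE 0.16, adjusted p = 0.00033).

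Fst and Chrd moved with MyoD mRNA and did not pass with F/R/C in the fit of all libraries. Fst (follistatin, which binds activin and myostatin) was at 445, 262 and 299 CPM in the MEFs, 97.5, 111 and 255 in +MyoD and 98.5 to 232 (median 167) with F/R/C. It fell with MyoD mRNA (log2 fold change -1.12, SE 0.31, adjusted p = 0.0074), +MyoD 3 lying just below the MEF range. Against +MyoD, the difference with F/R/C was 0.02 on the log2 scale (interval -0.51 to 0.55), and without +MyoD 3 it passed as higher (0.58, adjusted p = 0.049). Chrd (chordin, a BMP antagonist) rose 9.65-fold from 1.97, 2.15 and 2.17 CPM to 11.9, 23.5 and 25.4 CPM (log2 fold change 3.27, SE 0.30, adjusted p = 5.4e-07). It was at 10.2 to 28.2 (median 14.7) CPM with F/R/C (adjusted p = 0.17), passing as lower without +MyoD 1 (-0.68, adjusted p = 0.015).

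SP and CP were compared with +MyoD+F/R/C. None of the 45 genes passed with either, by edgeR's quasi-likelihood test on all 15 libraries. At this threshold 0 of all 19331 genes were called with SP and 7, all lower, with CP, so that the count of 0 among the members does not set them apart. Other fits called more genes. In DESeq2, 50 genes were higher and 17 lower with SP, and 77 higher and 125 lower with CP. In the fit of the 9 F/R/C libraries alone, 18 were higher and 9 lower with SP, and 41 higher and 111 lower with CP. At an unadjusted p under 0.05, 3 members were higher and 2 lower with SP (of all genes 3.79% and 2.83%), and 2 were higher and 7 lower with CP (of all genes 3.9% and 4.01%). Tgfb2 was at 168, 138 and 128 CPM without either, 211, 185 and 192 with SP and 246, 197 and 249.7 with CP, so that all libraries with SP or CP lay above those without. Its difference was 0.44 with SP (SE 0.17, adjusted p = 0.72) and 0.67 with CP (SE 0.17, adjusted p = 0.21). The latter passed in the fit of the 9 F/R/C libraries alone (0.66, adjusted p = 0.048) and in DESeq2 (0.67, adjusted p = 0.035). Acvrl1 was at 25.2, 34.9 and 33.4 CPM without, 16.7, 22.5 and 17.5 with SP and 22.1, 19.6 and 21 with CP, and passed in DESeq2 with both (SP -0.72, adjusted p = 0.012; CP -0.58, adjusted p = 0.049). Tgfbr3 was at 546, 658 and 443 CPM without and 309, 308 and 328 with CP, and passed in the fit of the 9 F/R/C libraries (-0.81, adjusted p = 0.022). For Acvr1b the libraries with SP or CP all lay below those without, at 40.0, 59.8 and 47.6 CPM without, 29.1, 39.1 and 36.0 with SP and 26.5, 36.6 and 36.5 with CP. The intervals were -1.0 to 0.00 and -1.07 to -0.06 on the log2 scale, which did not pass after adjustment. For Tgfb1 the intervals were -0.62 to 0.40 with SP and -0.42 to 0.60 with CP, and for Tgfbr1 -0.45 to 0.35 and -0.62 to 0.19. SP and CP were not tested against each other.

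**Figure D5:**
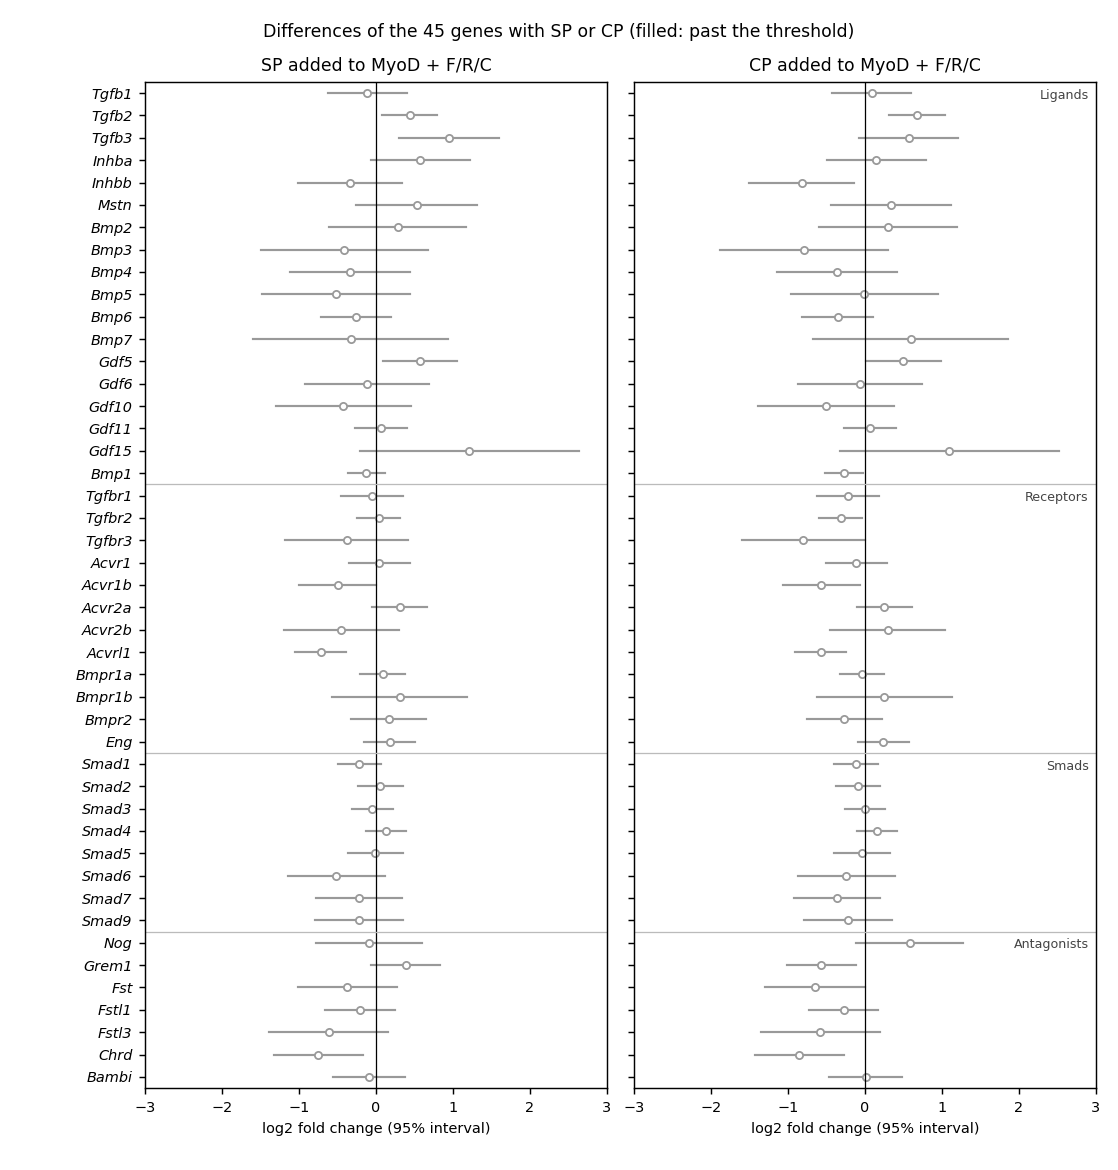
Difference (x axis, log2 fold change) of each of the 45 genes with SP (left) or CP (right) added to MyoD + F/R/C, ordered by role; points are edgeR estimates, lines 95% intervals, and all points are open since none passed the threshold. Tgfb2 had 0.44 with SP and 0.67 with CP, and Acvrl1 -0.72 and -0.58.

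Beyond the 45, 95 further genes of the pathway were listed and 86 could be tested. With MyoD mRNA, 30 of these rose and 20 fell (of all genes tested 22.8% and 18%). Among 17 further antagonists 7 rose and 3 fell, Wfikkn2, which binds myostatin, rising from 0.273 to 4.83 CPM on average (log2 fold change 4.12, SE 0.44, adjusted p = 2e-06). With F/R/C, 19 of the 86 rose and 29 fell (of all genes tested 13.5% and 10.8%). The same shares of all genes apply to the counts of each list in these 2 steps. Of 16 genes of TGF-β latency and activation, 4 rose and 10 fell. Those that fell included Tll1, a relative of Bmp1 (mean 59.6 CPM in +MyoD and 5.0 with F/R/C; log2 fold change -3.61, SE 0.31, adjusted p = 8.6e-07). Thbs1 (thrombospondin 1), which can activate latent TGF-β, fell as well (log2 fold change -2.78, SE 0.22, adjusted p = 4.5e-07). Tll2, another relative, rose (log2 fold change 2.60, SE 0.65, adjusted p = 0.0064). Of 17 further antagonists 5 rose and 3 fell, Dcn (decorin, a matrix proteoglycan that binds TGF-β) rising from 62.2 to 726 CPM on average (log2 fold change 3.54, SE 0.37, adjusted p = 5.5e-06). Of 18 intracellular regulators 1 rose and 6 fell, the largest falls being those of Skil (-1.75), Pmepa1 (-1.65) and Tgif1 (-1.49), which encode feedback inhibitors or co-repressors of Smad signalling. Among 10 further ligands none passed with F/R/C. Among 6 further receptors and co-receptors 2 rose and 0 fell, Acvr1c (ALK7, a receptor for activin B and nodal) rising from 0.0492 to 1.05 CPM on average (log2 fold change 4.10, SE 1.24, adjusted p = 0.02). These Acvr1c levels were low and overlapped, at 0 to 0.116 CPM in +MyoD, 0 in F/R/C 2 and at most 2.89, in SP 1. Genes often read as responses were also listed. Of 10 TGF-β readouts 9 fell and 0 rose over the 3 F/R/C groups, and 7 fell and 0 rose in +MyoD+F/R/C alone against +MyoD. Of 9 BMP readouts 7 rose (Id4, log2 fold change 2.89) and 1 fell (Msx2, log2 fold change -2.03) over the 3 groups. In +MyoD+F/R/C alone 5 rose and 1 fell (of all genes tested 10.9% and 8.39%). Among them, Hey1 was at 0.146 to 1.93 CPM in +MyoD and 0.656 to 3.50 in +MyoD+F/R/C, but at 6.31 to 17.1 with SP or CP. The counts over the 3 groups thus include differences that came with SP or CP. Acta2 and Tagln, both TGF-β readouts, were also among the 5 smooth muscle genes summed above. Signalling through either branch was not measured. With MyoD mRNA alone, 5 of the TGF-β readouts rose and 1 fell, and 1 of the BMP readouts rose and 3 fell.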

How the data were processed

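Per the labels and the study's methods, poly-A RNA of 15 cultures (3 MEF lines in each of 5 conditions) was sequenced single-end from TruSeq Stranded libraries. The authors trimmed reads with fastp 0.20.0 (base calls by bcl2fastq 2.20) and quantified transcripts with kallisto 0.46.1 on GRCm38.p6. The deposited files hold the estimated count and the TPM of 121843 transcripts per library. Of these, 121104 were matched by identifier to GENCODE M21 (GRCm38), leaving out 739 transcripts with 0.236 to 0.327% of the counts, and were summed per gene. Estimated counts were rounded to whole numbers.

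Counts were tested with edgeR 4.0.16 (R 4.3.3): TMM scaling, filterByExpr by group (minimum count 10, minimum total 15), 1 quasi-likelihood fit of condition over all 15 libraries, Benjamini-Hochberg adjustment over 19331 genes. CPM are TMM-scaled. DESeq2 1.42.0 (the tool of the study's methods) was an alternative, with those given in the closing section. Replicate numbers name the MEF line, and the pairing comes from the lines: deviations from the group means correlated by 0.0737 on average in 30 pairs of the same line and -0.0368 in 60 others, and each of the 15 correlated best with its own line. Replicate libraries differed by more than sampling noise (chi-square per degree of freedom at least 17.9). With 3 lines, p-values measure the spread between these cultures. The biological coefficient of variation was 0.35 over all libraries, 0.214 in the MEFs and 0.487 in +MyoD. Intervals around log2 fold changes are 95% intervals from the fit.

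The members and lists were chosen with earlier results of these data known. Named by rule were Tgfb1, Tgfbr1 and Acvr1b and, per role and comparison, up to 4 called members with the largest difference and at least 1 CPM in the higher group; further pathway genes were named up to 3 per list, by the same rule. Values of other members complete the account. Marker lists of muscle stem cells (109 to 523 CPM summed over the 15 libraries), macrophages (8.49 to 28.6), melanocytes (3.61 to 65.6, highest with CP), osteoblasts (36.4 to 57.9) and tendon (53.7 to 798) were also summed. Promoters are from RefSeq, GRCm38.p6.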

Additional observations from a re-analysis of the deposited data

How the results depend on the processing

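The alternatives were DESeq2 size factors, DESeq2, no filter on low counts, the MEF line as a replicate block, only the groups compared, only the 9 F/R/C libraries, lengthScaledTPM counts (counts rescaled by transcript length) and each library left out in turn. Of 72 results named by rule for 27 members, 57 kept both call and sign in every alternative run. The other 15 changed call or sign in some. The number of members called lower in +MyoD against MEFs was 3 with lengthScaledTPM counts, against 6. With SP, DESeq2 called 1 member lower (of all genes 17). With CP, DESeq2 called 1 higher and 1 lower (of all genes 77 and 125), and the fit of the 9 F/R/C libraries 1 higher and 1 lower (of all genes 41 and 111), against 0. The causes were not tested.

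The differences whose sign turned were near 0 and not called. For Acvr1b in the 3 F/R/C groups against +MyoD they were 0.012 with the DESeq2 size factors and with DESeq2, 0.021 with no filter, 0.019 with the replicate block and -0.244 to 0.207 over the libraries left out, and in +MyoD against MEFs -0.368 to 0.082. For Tgfb1 they were -0.248 to 0.038 with SP and -0.054 to 0.236 with CP over the libraries left out. For Tgfbr1 with SP they were 0.027 with lengthScaledTPM counts and -0.270 to 0.046 over the libraries left out. Another scaling moved the median of all genes by at most 0.02 on the log2 scale. With the replicate block, 22 members were called higher in +MyoD against MEFs, against 20, and 14 in the 3 F/R/C groups against +MyoD, against 13; beside Tgfb1, Bmp4, Smad6 and Fstl3, whose values are given above, pairing by MEF line changed no call of a member. Of the calls in +MyoD+F/R/C alone against +MyoD, Gdf6 without F/R/C 3 (-1.29, adjusted p = 0.052), Acvr1 without +MyoD 1, F/R/C 1, F/R/C 2 or F/R/C 3 (-0.66 to -0.49, adjusted p = 0.052 to 0.084), Acvr2b without +MyoD 2 (1.18, adjusted p = 0.058), Eng without +MyoD 1 (-0.48, adjusted p = 0.036) and Fstl1 without +MyoD 2 or F/R/C 3 (-0.68 to -0.54, adjusted p = 0.06 to 0.065) were also lost. Of those against MEFs, Bmp7 without F/R/C 1 (1.40, adjusted p = 0.071), Fst without F/R/C 2, F/R/C 3, MEFs 1 or MEFs 3 (-0.84 to -0.51, adjusted p = 0.059 to 0.22), Fstl1 without F/R/C 1, F/R/C 2, MEFs 1, MEFs 2 or MEFs 3 (0.52 to 0.63, adjusted p = 0.053 to 0.084) and Fstl3 without F/R/C 1, F/R/C 3, MEFs 2 or MEFs 3 (-0.97 to -0.78, adjusted p = 0.077 to 0.13) were lost. With lengthScaledTPM counts, calls were also lost for Inhba (-0.58, adjusted p = 0.11) and Bmpr1b (-1.12, adjusted p = 0.067) in +MyoD against MEFs, Gdf11 (0.48, adjusted p = 0.022) in the 3 F/R/C groups, Acvr2b (0.76, adjusted p = 0.32), Acvrl1 (-0.92, adjusted p = 0.077), Bmp4 (0.88, adjusted p = 0.1) and Smad7 (-0.76, adjusted p = 0.093) in +MyoD+F/R/C against +MyoD, and Smad3 (0.52, adjusted p = 0.07), Bmp5 (0.89, adjusted p = 0.088) and Fst (-0.76, adjusted p = 0.062) against MEFs. The fit of only the groups compared lost Inhba (-0.85, adjusted p = 0.1) and Bmpr1b (-1.18, adjusted p = 0.063) in +MyoD against MEFs, and Bmp4, Bmp7, Acvr1, Eng, Smad7 and Fstl1 in +MyoD+F/R/C against +MyoD (adjusted p = 0.053 to 0.17).

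Low levels, as of Acvr2b and Bmp5, and the spread among the +MyoD libraries limit what can be called with 3 lines a group.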
